A study of Mus musculus with 6 samples.

Results

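The genes described here are 10 mouse genes that build or regulate the barrier of the vessel wall: Cldn5, Cdh5, Esam, Pecam1, Tjp1, Tek, Tie1, Angpt2, Kdr and Edn1. They were taken by symbol as 10 of the 32285 genes counted in 6 single-cell RNA libraries of mouse lung, and each matched 1 row in every library. Their level was read mainly in 2112 endothelial-gated cells, of 61736 cells that passed the filter on cells, and then in the other cell types of the same libraries. A cell passed the endothelial gate with at least 4 UMIs over Cldn5, Cdh5, Calcrl and Ramp2 together and at most 1 UMI of Ptprc, the gene of CD45. A UMI (unique molecular identifier) marks a single captured RNA molecule.

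The study set mice without Nos1, the gene of neuronal nitric oxide synthase, against wild type mice after bacterial lipopolysaccharide (LPS). KO LPS was 2 libraries of NOS1-/- mice given 10 mg/kg LPS into the peritoneum for 4 h, and WT LPS was 2 libraries of wild type mice, named C65BL6 in the design text, given the same. KO vehicle and WT vehicle were 1 library each of mice given vehicle over the same time. All libraries came from digested lung after magnetic enrichment of CD45+ leukocytes, so the endothelial cells, which carry no CD45, are cells that came through that enrichment. The labels give no age or sex and do not say whether libraries of 1 group came from separate or pooled animals, so the p-values measure the spread between libraries, which may be technical.

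Endothelial cells seal the vessel wall with tight junctions, where claudin-5 (Cldn5) and ESAM (Esam) bridge neighbouring cells and ZO-1 (Tjp1) anchors them inside, and with adherens junctions of VE-cadherin (Cdh5). PECAM-1 (Pecam1) sits along the same contacts and takes part in the passage of leukocytes. The receptor Tie2 (Tek) keeps the barrier quiet when angiopoietin-1 binds it, Tie1 is its partner without a ligand of its own, and angiopoietin-2 (Angpt2), released by activated endothelium, acts largely as the antagonist. VEGFR2 (Kdr) passes the growth and permeability signal of VEGF, and Edn1 encodes endothelin-1, a vasoconstrictor peptide made in endothelium and in activated macrophages.

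In the mm10 build the genes lie, by the GENCODE M21 annotation, at chr16:18776847-18778262 (Cldn5, plus strand), chr8:104101625-104144511 (Cdh5, plus), chr9:37528078-37538319 (Esam, plus), chr11:106654217-106750628 (Pecam1, minus) and chr7:65296165-65527781 (Tjp1, minus). The signalling genes lie at chr4:94739289-94874976 (Tek, plus), chr4:118471191-118490061 (Tie1, minus), chr8:18690263-18741562 (Angpt2, minus), chr5:75932827-75978458 (Kdr, minus) and chr13:42301476-42307990 (Edn1, plus). RefSeq promoter sequence of the GRCm38.p6 build was matched for 6 members (Cldn5, Tjp1, Tek, Tie1, Kdr and Edn1). The 250 bases before the start are shown, 5′ to 3′ on the gene's strand, for the 2 receptor genes whose UMIs fell most after LPS, Tek at chr4:94739039-94739288 (plus) and Kdr at chr5:75978456-75978705 (minus), and for Edn1, which rose, at chr13:42301226-42301475 (plus). Capitals mark the ETS core GGAA, or TTCC where it lies on the opposite strand.
Tek: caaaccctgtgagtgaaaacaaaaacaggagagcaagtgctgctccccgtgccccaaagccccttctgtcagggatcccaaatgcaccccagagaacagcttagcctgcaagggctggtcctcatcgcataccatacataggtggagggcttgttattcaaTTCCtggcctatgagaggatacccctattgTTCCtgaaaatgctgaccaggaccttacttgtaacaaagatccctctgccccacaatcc
Kdr: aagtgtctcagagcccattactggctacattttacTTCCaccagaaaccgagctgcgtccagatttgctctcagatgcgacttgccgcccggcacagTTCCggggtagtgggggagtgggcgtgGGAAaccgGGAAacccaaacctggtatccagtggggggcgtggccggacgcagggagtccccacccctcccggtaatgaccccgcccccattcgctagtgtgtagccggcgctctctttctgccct
Edn1: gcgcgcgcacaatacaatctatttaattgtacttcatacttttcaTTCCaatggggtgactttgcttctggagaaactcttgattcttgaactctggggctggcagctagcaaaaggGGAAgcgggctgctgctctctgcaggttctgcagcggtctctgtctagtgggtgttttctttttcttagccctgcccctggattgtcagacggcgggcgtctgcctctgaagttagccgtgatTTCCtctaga
The core stood 2 times in the Tek window, 4 times in Kdr and 3 times in Edn1, and 93.4% of 32851 mouse promoter windows of this length held at least 1. The NF-kB motif (4.11% of windows), the AP-1 motif TGANTCA (6.75%) and the GATA motif AGATAA (9.99%), searched on both strands, were not found in any of the 6 windows, which says only that these letters do not stand there.

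The libraries held 55361477 to 115225284 UMIs, and 249 to 520 endothelial-gated cells each, with a median of 3001 to 7187 UMIs per cell. All 15 endothelial marker genes were detected in every library, though 4 of them are the gate genes. Ptprc, which the gate limits to 1 UMI per cell, stood at 8.08 to 17.7 CPM. CPM are UMIs of a gene per 1000000 UMIs of all genes in the gated cells, here scaled by the TMM factors of edgeR unless called plain. Nos1 itself gave 4 and 4 UMIs in the whole KO LPS libraries, 0 and 1 in WT LPS, 5 in KO vehicle and 2 in WT vehicle, and since a 3′ tag can lie outside the deleted part this count checks nothing. Endothelial-gated cells were 4.49% and 3.95% of cells in KO LPS, 2.79% and 3.33% in WT LPS, 2.90% in KO vehicle and 2.99% in WT vehicle. Pairs of libraries shared 20 to 35 cell barcodes.

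Transcripts of the sex chromosomes differed between the groups. Both KO LPS libraries mixed cells of either mark. They held 113 and 65 endothelial cells with Y-linked and no Xist UMIs, beside 234 and 161 with Xist and no Y-linked UMIs. No endothelial cell of WT LPS or KO vehicle held a Y-linked UMI, and none of WT vehicle held an Xist UMI. In wild type mice the sex mark and LPS therefore cannot be told apart, nor can the mark and the genotype between the vehicle libraries. For the members in endothelial-gated cells, the comparison of KO LPS with WT LPS is given below both with all cells and with Xist-marked cells. Markers of other cells moved with LPS in the gated cells: the 7 epithelial markers summed to 2755 to 5050 plain CPM in LPS libraries against 1100 to 1380 in vehicle libraries. The 6 neutrophil markers summed to 807 to 2504 against 27.2 to 252. Between 12.5% and 17.6% of endothelial-gated cells in LPS libraries, against 9.64% in KO vehicle and 6.15% in WT vehicle, also passed the gate of another type, and every member kept its direction and its call for LPS without those cells. The 15 endothelial markers together summed to 7202 to 8398 plain CPM in LPS libraries against 17185 to 17468 in vehicle libraries. Of the 11 that are neither members nor gate genes, 2 rose and 9 fell. What part these shifts have in the results was not tested.

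Over both genotypes and with TMM scaling, all 10 genes were called for LPS, and they moved in opposite directions. Limits for Cldn5, Pecam1 and Tjp1 are given below. The adhesion molecules Cdh5, Esam and Cldn5, the Tie2 antagonist Angpt2 and the vasoconstrictor Edn1 rose, while the receptors Tek, Kdr and Tie1 and the junction genes Pecam1 and Tjp1 fell. The comparison of the 4 LPS with the 2 vehicle libraries was an edgeR quasi-likelihood test on summed UMIs with Benjamini-Hochberg adjustment over 11971 genes, and it called 60.8% of all genes (32.4% higher and 28.4% lower), so 5 members higher and 5 lower stand on a background in which most genes moved. The median log2 change was 0.08 over the members and -0.02 over all genes tested. Each vehicle group has 1 library, so the spread behind the test comes from the LPS libraries.

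**Figure D1:**
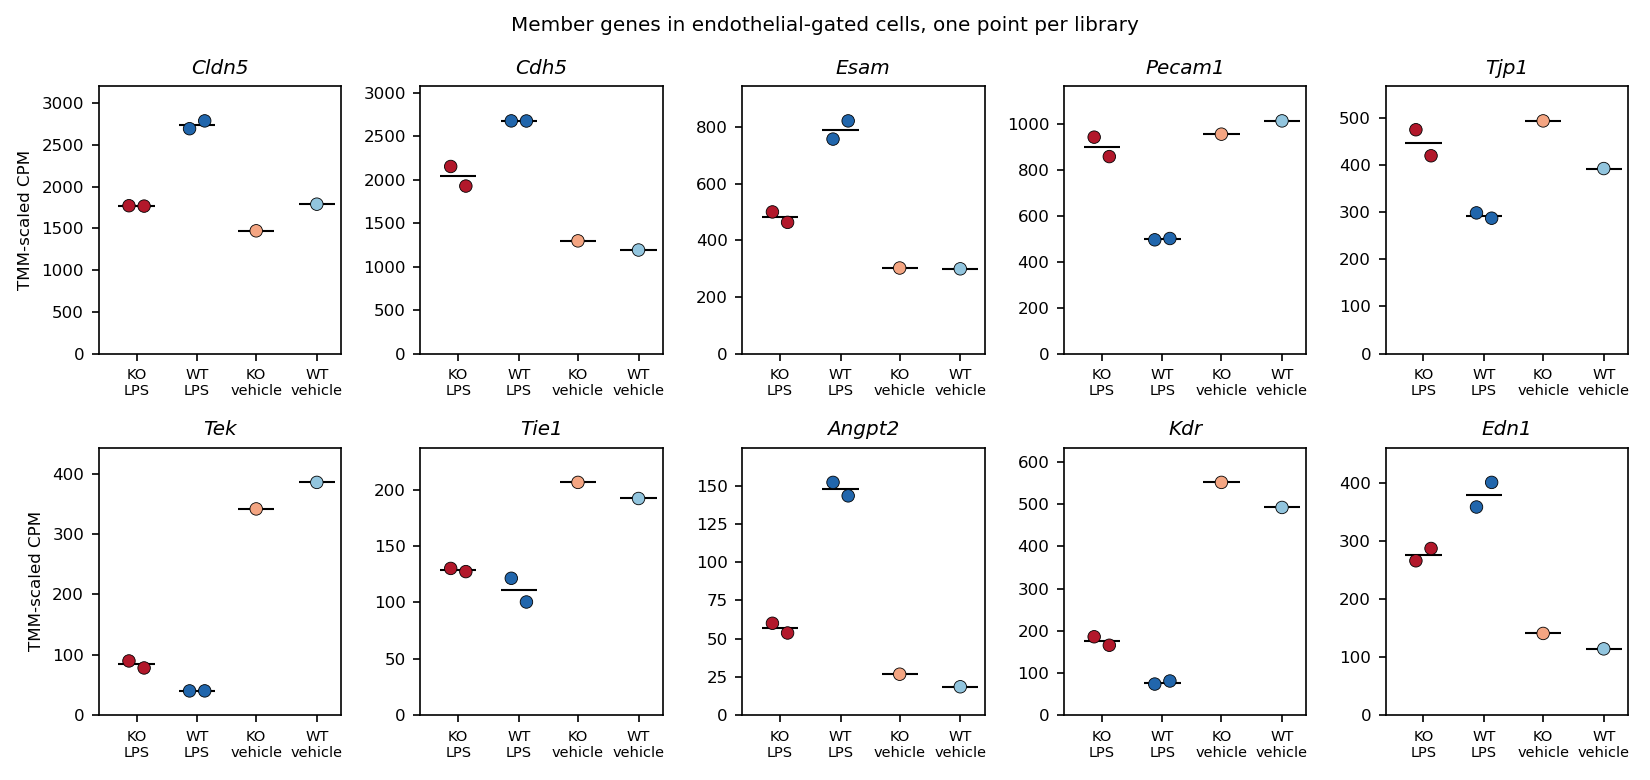
TMM-scaled CPM of each of the 10 genes in endothelial-gated cells (vertical axes, each from 0), with a point per library, a line at the group mean and the groups KO LPS, WT LPS, KO vehicle and WT vehicle from left to right. Kdr and Tek are lowest in WT LPS and highest in the vehicle libraries, and Angpt2 is highest in WT LPS.

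VE-cadherin, ESAM and claudin-5 showed the rise of junction genes. Cdh5 had 2152 and 1927 CPM in KO LPS cells and 2675 and 2676 CPM in WT LPS cells, against 1296 CPM in KO vehicle cells and 1191 CPM in WT vehicle cells. Every LPS library lay above both vehicle libraries, and the log2 change was 0.91 ± 0.06 (SE, edgeR adjusted p = 1.71e-07). Esam had 501 and 464 CPM in KO LPS cells and 758 and 823 CPM in WT LPS cells, against 302 CPM in KO vehicle and 299.6 CPM in WT vehicle cells, again without overlap (log2 change 1.04 ± 0.07, edgeR adjusted p = 1.95e-07). Cldn5 had 1772 and 1768 CPM in KO LPS cells and 2696 and 2789.6 CPM in WT LPS cells, against 1471 CPM in KO vehicle and 1791 CPM in WT vehicle cells. The KO LPS libraries of Cldn5 lay within the vehicle range, and its log2 change of 0.44 ± 0.05 (edgeR adjusted p = 2.03e-05) turned to -0.19 with an adjusted p of 0.0066 when libraries were scaled by plain totals. That scaling put the median gene at -0.64 and split the calls into 2006 higher and 6476 lower, against 3882 higher and 3395 lower with TMM, so the direction of Cldn5 rests on the scaling. Relative to the median gene it rose under both. Cldn5 and Cdh5 are also gate genes, and with a gate on 11 other endothelial markers the log2 changes were 0.41 for Cldn5 and 0.87 for Cdh5.

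PECAM-1 and ZO-1 were the junction genes that fell. Pecam1 had 943 and 858 CPM in KO LPS cells and 496 and 501 CPM in WT LPS cells, against 956 CPM in KO vehicle and 1014 CPM in WT vehicle cells. The WT LPS libraries stood far below the rest, whereas KO LPS nearly reached the vehicle level on the TMM scale. The log2 change over both genotypes was -0.55 ± 0.06 (edgeR adjusted p = 1.09e-05). The TMM factors were 0.905 and 0.895 for KO LPS against 1.36 for KO vehicle, so on plain CPM KO LPS lay further below. Over all libraries plain Pecam1 was 643 CPM after LPS against 1311 in vehicle, and plain Tjp1 was 336 against 599. Tjp1 had 475 and 419.5 CPM in KO LPS cells and 298 and 287 CPM in WT LPS cells, against 493 CPM in KO vehicle and 392 CPM in WT vehicle cells, with overlap between LPS and vehicle (log2 change -0.28 ± 0.07, edgeR adjusted p = 0.00486). Both calls were lost without the WT vehicle library, which leaves KO LPS against KO vehicle, where the log2 changes were -0.09 for Pecam1 (edgeR adjusted p = 0.399) and -0.15 for Tjp1 (edgeR adjusted p = 0.244).

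The Tie2 system showed the widest shift. Tek had 89.6 and 78.0 CPM in KO LPS cells and 39.9 and 40.0 CPM in WT LPS cells, against 341 CPM in KO vehicle and 385 CPM in WT vehicle cells. Its level after LPS was thus 0.160 of the vehicle level (log2 change -2.64 ± 0.08, edgeR adjusted p = 2.12e-10). Tie1, the partner receptor, had 130.2 and 127 CPM in KO LPS cells and 121 and 100.3 CPM in WT LPS cells, against 207 CPM in KO vehicle and 192 CPM in WT vehicle cells, and fell less (log2 change -0.74 ± 0.09, edgeR adjusted p = 2.37e-05). Angpt2, whose product competes at Tie2, had 60.0 and 53.6 CPM in KO LPS cells and 152 and 143 CPM in WT LPS cells, against 26.7 CPM in KO vehicle and 18.5 CPM in WT vehicle cells. It was 4.13-fold higher after LPS (log2 change 2.05 ± 0.12, edgeR adjusted p = 6.23e-08), so receptor and antagonist moved in opposite directions in every LPS library against every vehicle library.

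Kdr, the VEGF receptor, had 186 and 166 CPM in KO LPS cells and 73.5 and 80.7 CPM in WT LPS cells, against 552 CPM in KO vehicle and 493 CPM in WT vehicle cells. No LPS library came near the vehicle libraries, and the LPS level was 0.224 of the vehicle level (log2 change -2.16 ± 0.07, edgeR adjusted p = 5.46e-10). Edn1 had 266 and 287 CPM in KO LPS cells and 358 and 401 CPM in WT LPS cells, against 140.5 CPM in KO vehicle and 114 CPM in WT vehicle cells. It was 2.56-fold higher after LPS (log2 change 1.35 ± 0.08, edgeR adjusted p = 8.89e-08). Leukocytes of the LPS libraries carried Edn1 RNA too, and cells of the T cell gate held 12.5 and 15.7 CPM in KO LPS and 40.4 and 34.9 CPM in WT LPS, against 0.24 and 0 CPM in KO vehicle and WT vehicle. Monocytes and neutrophils held more, as given below, and what part RNA of other cells has in the endothelial Edn1 values was not tested. LPS and vehicle libraries did not overlap for 8 of the 10 members, the exceptions being Cldn5 and Tjp1, where 66.4% of all genes did not overlap.

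The share of cells with a UMI was read at equal depth. After thinning to 1500 UMIs per cell, which left out 23 to 73 shallower cells per library, Tek was seen in 11.8% and 7.79% of KO LPS cells and in 3.35% and 3.84% of WT LPS cells, against 50.5% of KO vehicle and 54.2% of WT vehicle cells. Kdr was seen in 21.6% and 18.8% of KO LPS cells and in 10.4% and 9.59% of WT LPS cells, against 56.0% of KO vehicle and 50.8% of WT vehicle cells. T cells, which should lack both genes, gave 0% to 0.191% for Tek and 0% to 0.339% for Kdr across the libraries. Angpt2 stayed a gene of few cells: 6.51% and 6.82% in KO LPS and 13.01% and 14.5% in WT LPS, against 4.00% in KO vehicle and 4.24% in WT vehicle. Not every member followed its TMM-scaled CPM. Thinned counts carry no TMM factor, and on plain CPM Cldn5 stood at 1888 over the LPS libraries and 2155 over the vehicle libraries. Cldn5 was seen in 81.7% and 79.5% of KO LPS cells and in 88.8% and 89.3% of WT LPS cells, against 84.0% of KO vehicle and 91.1% of WT vehicle cells, each below the vehicle library of the same genotype. Pecam1 was seen in 67.0% and 67.2% of KO LPS cells and in 47.6% and 49.9% of WT LPS cells, against 81.5% of KO vehicle and 82.6% of WT vehicle cells. Its share was lower in KO LPS than in KO vehicle, although the TMM-scaled CPM were close. On plain CPM Pecam1 was lower in KO LPS than in KO vehicle as well. Low levels per cell and absence cannot be told apart at this depth.

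Nearly every member stood closer to its vehicle level in KO LPS cells than in WT LPS cells. In KO LPS cells Cldn5, Cdh5, Esam, Angpt2 and Edn1, which LPS raised, were lower than in WT LPS cells, and Pecam1, Tjp1, Tek and Kdr, which LPS lowered, were higher. The test called 9 of 10 members, 4 higher and 5 lower, against 18.5% of all genes (8.12% higher and 10.4% lower), and KO LPS and WT LPS libraries did not overlap for any member, against 59.3% of genes that did not overlap. The largest differences were Angpt2 at a log2 difference of -1.37 ± 0.11 (edgeR adjusted p = 1.41e-05), Kdr at 1.19 ± 0.10 (edgeR adjusted p = 1.9e-05) and Tek at 1.08 ± 0.11 (edgeR adjusted p = 0.000105). Pecam1 differed by 0.85 ± 0.07, Esam by -0.71 ± 0.07, Cldn5 by -0.63 ± 0.06, Tjp1 by 0.61 ± 0.08, Edn1 by -0.46 ± 0.08 and Cdh5 by -0.39 ± 0.07, each past the edgeR threshold. Tie1 at 0.22 ± 0.11 did not pass (edgeR adjusted p = 0.185). Cldn5 and Cdh5 are gate genes, and the other gate genes differed the opposite way. Calcrl had 492 and 414 CPM in KO LPS against 142 and 133 in WT LPS, and Ramp2 520 and 509 against 151 and 158. WT LPS cells thus rested more on Cldn5 and Cdh5 to pass the gate. With a gate that holds no member gene, and with the gate on 11 other endothelial markers, 9 members were called as well. Other markers moved with this comparison too. Of the 11 endothelial markers that are neither members nor gate genes, 8 were higher and 1 lower in KO LPS than in WT LPS, and 7 differed in response, all positive. In the gated cells the neutrophil markers summed to 1183 and 807 plain CPM in KO LPS, against 2062 and 2504 in WT LPS. The 7 platelet markers summed to 106 and 161 plain CPM in KO LPS, against 1379 and 343 in WT LPS. Their part in the result was not tested. Without cells that pass another gate the same 9 members were called, with Angpt2 at -1.51 and Kdr at 1.18. Scaling by plain totals moved the median gene by 0.14 and split the calls over all genes into 1517 higher and 840 lower, against 972 higher and 1246 lower with TMM.

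The response to LPS was computed within each genotype, with the vehicle library of that genotype and with TMM scaling. For Pecam1 and Tjp1 the KO values below hold on that scale. In KO cells 8 members were called, 5 higher and 3 lower, against 43.2% of all genes (25.2% higher and 18.0% lower), and in WT cells all 10 were called against 51.3% of genes. Tek changed by -2.02 in KO and -3.27 in WT on the log2 scale, Kdr by -1.65 in KO and -2.67 in WT, and Angpt2 by 1.10 in KO and 2.996 in WT. Pecam1, at -0.09 in KO (edgeR adjusted p = 0.444) and -1.02 in WT, and Tjp1, at -0.14 in KO (edgeR adjusted p = 0.269) and -0.42 in WT, were the members not called in KO. The difference between the responses was itself tested: 7 members passed, 3 positive and 4 negative, against 2.79% of all genes (1.87% positive and 0.919% negative). They were Angpt2 at -1.90 ± 0.25 (edgeR adjusted p = 0.0029), Tek at 1.25 ± 0.17 (edgeR adjusted p = 0.0029), Kdr at 1.03 ± 0.15 (edgeR adjusted p = 0.00513), Pecam1 at 0.94 ± 0.12, Edn1 at -0.76 ± 0.16, Esam at -0.73 ± 0.14 and Cdh5 at -0.51 ± 0.12. Cldn5 at -0.35 ± 0.10 (edgeR adjusted p = 0.1002), Tjp1 at 0.28 ± 0.14 and Tie1 at 0.11 ± 0.18 did not pass. The Cdh5 call was lost with a gate that holds no member gene (-0.51, edgeR adjusted p = 0.0704).

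**Figure D2:**
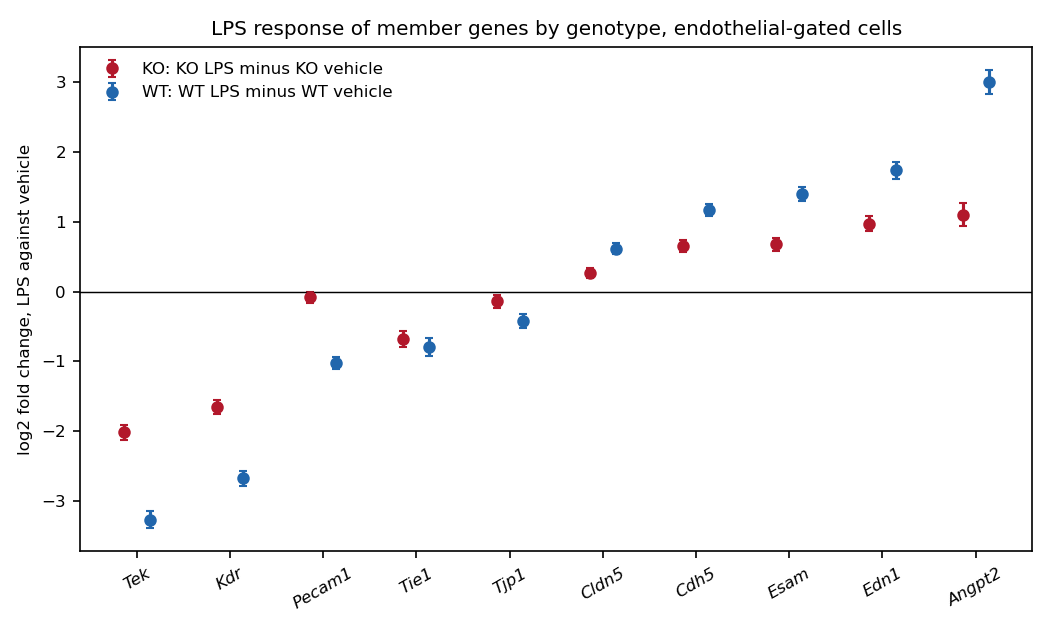
Log2 change after LPS of each of the 10 genes in endothelial-gated cells, in KO (LPS against vehicle) and in WT (LPS against vehicle), with bars of the standard error from the edgeR fit. The WT response is the larger in size for each gene, most clearly for Angpt2 (1.10 in KO and 2.996 in WT) and Tek (-2.02 in KO and -3.27 in WT).

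That contrast depended on which cells stood for KO LPS. Within the 2 KO LPS libraries, Y-marked cells had 280 and 284 CPM of Kdr, against 98.9 and 83.5 CPM in Xist-marked cells, while WT LPS had 72.4 and 79.1 CPM in the same fit. Tek had 113 and 130.2 CPM in Y-marked cells, against 66.4 and 47.4 CPM in Xist-marked cells, and Pecam1 had 1254 and 1109 CPM in Y-marked cells, against 669 and 648 CPM in Xist-marked cells. Neither gene overlapped between the marks. Y-marked minus Xist-marked log2 differences were 1.62 ± 0.11 for Kdr, 1.06 ± 0.16 for Tek, 0.85 ± 0.08 for Pecam1, 0.45 ± 0.10 for Tjp1, -0.65 ± 0.19 for Angpt2, -0.56 ± 0.09 for Cdh5 and -0.46 ± 0.10 for Esam. Those 7 members were called by edgeR with Benjamini-Hochberg adjustment, against 29.0% of 11323 genes, and Cldn5 (0.08), Tie1 (-0.26) and Edn1 (-0.21) were not. Both kinds of cell came from the same libraries, but the fit held them as separate sums with no term for the library. Its calls thus ignore that pairing. The median UMIs per cell were 12369 and 8973 for the Y mark against 7450.5 and 8247 for the Xist mark.

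**Figure D3:**
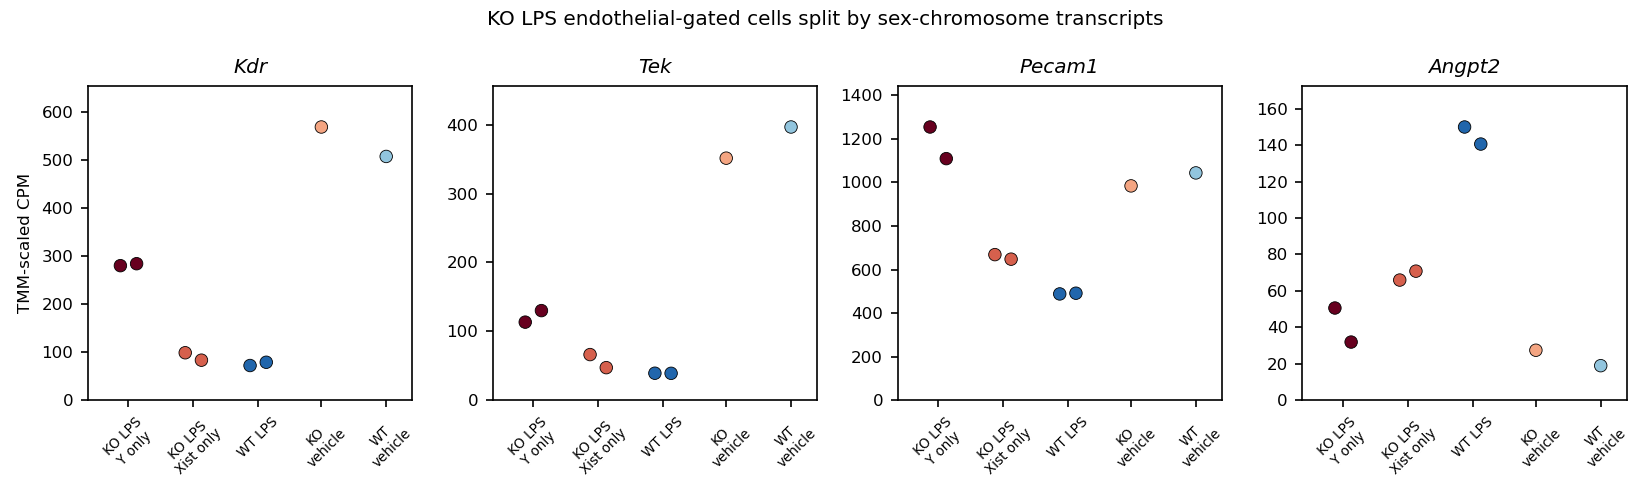
TMM-scaled CPM of members in endothelial-gated cells, with KO LPS cells split into those with Y-linked and no Xist UMIs and those with Xist and no Y-linked UMIs, beside the WT LPS, KO vehicle and WT vehicle libraries (a point per library). Kdr reaches 280 and 284 CPM in Y-marked KO LPS cells and 98.9 and 83.5 CPM in Xist-marked ones, against 72.4 and 79.1 CPM in WT LPS.

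Fewer members were called between the genotypes when the cells of each group were selected by the Xist mark. A fit of Xist-marked cells only, 234 and 161 in KO LPS, 208 and 283 in WT LPS and 174 in KO vehicle, left out WT vehicle, which has none. It called 7 members between KO LPS and WT LPS, against 9.4% of genes. These were Angpt2 at a log2 difference of -1.07 ± 0.12, Cldn5 at -0.62 ± 0.08, Tek at 0.55 ± 0.16, Esam at -0.50 ± 0.09, Pecam1 at 0.45 ± 0.08, Edn1 at -0.44 ± 0.10 and Tjp1 at 0.43 ± 0.10, of which Tek passed narrowly (edgeR adjusted p = 0.0454). Angpt2 had 61.8 and 66.8 CPM in Xist-marked KO LPS cells, against 139 and 130.1 CPM in Xist-marked WT LPS cells. Cdh5 at -0.17 ± 0.08 (edgeR adjusted p = 0.249), Kdr at 0.30 ± 0.13 (edgeR adjusted p = 0.189) and Tie1 at 0.39 ± 0.12 (edgeR adjusted p = 0.0559) were not called. A fit that held Y-marked KO LPS cells as a further group called 6 members against all WT LPS cells, marked or not. Of all genes 9.31% were called there, and Tek was not (edgeR adjusted p = 0.0502). A fit without the Y-marked group called 7 members against the same WT LPS cells. When the difference in LPS response was refitted with Xist-marked KO LPS cells only, 1 member was called, Angpt2 at -1.60 (edgeR adjusted p = 0.0469), and Kdr was 0.14 (edgeR adjusted p = 0.809), against 1.03 with all cells. Calls over all genes fell steeply in that refit too, as the counts under processing show, so the loss was not particular to the members. Among Xist-marked cells alone, KO LPS against KO vehicle called 9 members, all but Cldn5, where 49.9% of genes were called: Kdr changed by -2.53 ± 0.14, Tek by -2.57 ± 0.15, Angpt2 by 1.33 ± 0.18 and Pecam1 by -0.52 ± 0.10. With all KO vehicle cells as the other side 49.7% of genes were called. The Xist-marked cells had a median of 7450.5 and 8247 UMIs in KO LPS, 10223.5 and 6796 in WT LPS and 5914 in KO vehicle. In Y-marked KO LPS cells, 4 members (Kdr, Tek, Tie1 and Edn1) were called against KO vehicle, where 25.7% of genes were called, and 9 against WT LPS, where 32.0% were. Mark, animal and response within the KO LPS libraries cannot be told apart.

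The 2 vehicle libraries set the baseline of each genotype and allow no test. On plain CPM, with 95% intervals that cover counting error only, the KO to WT ratio was 0.854 (0.817 to 0.892) for Cldn5, 1.13 (1.08 to 1.19) for Cdh5, 1.31 (1.201 to 1.42) for Tjp1 and 1.16 (1.08 to 1.26) for Kdr. Angpt2, at 76 UMIs in KO vehicle against 42 in WT vehicle, gave 1.501 (1.02 to 2.24), and Edn1 gave 1.28 (1.09 to 1.504). The intervals of Pecam1 at 0.980, Esam at 1.05, Tek at 0.921 and Tie1 at 1.12 included 1. Over both genotypes the plain LPS to vehicle ratio was 0.120 for Tek, 0.169 for Kdr, 2.67 for Angpt2 and 1.61 for Edn1. Each lay further from 1 than the baseline ratio of the gene. Within KO alone the plain changes of Angpt2 and Edn1 after LPS were smaller, near their baseline ratios.

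The partners of the members were read from lists, and they gave LPS counts of 6 higher and 3 lower of 11 tested angiopoietin and Tie partners, and of 4 higher and 6 lower of 11 tested VEGF pathway genes. Their median log2 changes were 0.45 and -0.95, beside -0.02 over all genes. LPS called 60.8% of all genes (32.4% higher and 28.4% lower), and these counts and those of the lists below stand on that background. Ptprb, the phosphatase VE-PTP that restrains Tie2, had 341 and 343 CPM in KO LPS and 214 and 195 CPM in WT LPS, against 1720.4 and 1665 CPM in KO and WT vehicle (log2 change -2.68 ± 0.06, edgeR adjusted p = 1.59e-11). Foxo1, a transcription factor known to drive Angpt2, rose by 0.90 ± 0.09, Tnip2 by 2.55 ± 0.15, and Klf2, a flow-induced factor of quiescent endothelium, fell by 0.49 on the log2 scale. In the VEGF list the co-receptor Nrp1 (-2.13 ± 0.07) and the phospholipase Plcg1 (-2.63 ± 0.15), which acts below VEGFR2, fell with Kdr, while the ligand Pgf (3.53 ± 0.38) and the co-receptor Nrp2 (1.13 ± 0.19) rose, each past the edgeR threshold. KO LPS against WT LPS gave 3 higher and none lower in the VEGF list, among them Nrp1 at 0.72 ± 0.09 and Plcg1 at 1.13 ± 0.23. Among the Tie partners 2 were higher and 1 lower, with Ptprb at 0.74 ± 0.07 and Klf2 at 0.46 ± 0.07. Of all genes 18.5% were called in this comparison. With Xist-marked KO LPS cells against all WT LPS cells, 1 gene was higher and 1 lower of 11 in the VEGF list. Among the Tie partners 2 were higher and 1 lower there, where 9.31% of all genes were called.

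Around Edn1, 5 genes of the endothelin list were tested and 2 rose and 2 fell, with a median log2 change of -0.04. The receptor gene Ednrb fell (-1.12 ± 0.10), as did the ligand gene Edn3 (-1.33 ± 0.38), and the converting enzyme Ece1 (0.35 ± 0.06) and the receptor Ednra (0.52 ± 0.15) rose. Of 26 other junction genes, 8 rose and 9 fell, with a median of 0.15, where 60.8% of all genes were called. F11r, which encodes the junctional adhesion molecule JAM-A, had 525 and 504 CPM in KO LPS and 612 and 644 CPM in WT LPS, against 93.4 and 95.02 CPM in KO and WT vehicle (2.59 ± 0.08). The gap junction gene Gja1 rose by 3.54 ± 0.20 and Ctnnb1, the catenin that binds VE-cadherin, by 0.88 ± 0.07. Jup, whose product plakoglobin binds the same tail, had 74.8 and 68.0 CPM in KO LPS and 16.4 and 17.35 CPM in WT LPS, against 352 and 275 CPM in KO and WT vehicle. It changed by -3.16 ± 0.08 after LPS (edgeR adjusted p = 8.36e-11) and was the only other junction gene whose response differed between genotypes (1.73 ± 0.18, edgeR adjusted p = 0.000661). The Vcl gene of vinculin was higher in KO LPS than in WT LPS by 0.54 ± 0.08, and the peptidase gene Mme by 1.01 ± 0.26.

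The list of 23 tested barrier regulators held 8 genes that rose and 12 that fell after LPS, with a median of -0.27. Thbd, the thrombomodulin gene, had 113 and 113 CPM in KO LPS and 51.5 and 52.4 CPM in WT LPS, against 726 and 653 CPM in KO and WT vehicle (-3.16 ± 0.07), and Rasip1, a Rap1 effector that tightens junctions, rose by 2.38 ± 0.06. The receptor pair for adrenomedullin, Calcrl (-2.76 ± 0.07) and Ramp2 (-2.83 ± 0.05), fell as well, and both are gate genes. Leaving out the gate genes, 11 of 21 were higher and 3 lower in KO LPS than in WT LPS, where 18.5% of all genes were called. The LPS response differed for 8 with a positive and 1 with a negative sign, where 2.79% of all genes were called. These counts use all KO LPS cells. Xist-marked KO LPS cells against all WT LPS cells gave 4 higher and 2 lower of 23, gate genes included, where 9.31% of all genes were called. Y-marked against Xist-marked KO LPS cells gave 12 higher and 9 lower, where 29.0% were called. All 6 tested leukocyte adhesion genes rose: Icam1 had 2134 and 2106 CPM in KO LPS and 2522 and 2506 CPM in WT LPS, against 64.3 and 59.8 CPM in KO and WT vehicle. Vcam1 rose by 4.598 ± 0.10 and Cx3cl1 by 2.84 ± 0.11, and Selp, the P-selectin gene, had 425 and 435 CPM in KO LPS and 614 and 491.5 CPM in WT LPS, against 2.11 CPM in KO vehicle and 0 in WT vehicle. Ackr1, a gene of venules, held 59.6 and 93.3 CPM in KO LPS and 125 and 166 CPM in WT LPS, and no UMI in either vehicle library. KO LPS against WT LPS called 4 of the 6, all lower in KO, with Vcam1 at -0.72 ± 0.07 and Ackr1 at -0.96 ± 0.19. Of all genes 18.5% were called there.

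The adhesion genes also differed between the marks of the KO LPS libraries, in the same fit without a term for the library. Selp had 46.4 and 40.2 CPM in Y-marked cells, against 685 and 657 CPM in Xist-marked cells of the same libraries (log2 difference -3.93 ± 0.15). Vcam1 had 79.9 and 86.4 CPM in Y-marked cells, against 542 and 499.7 CPM in Xist-marked cells (-2.66 ± 0.11), and Icam1 had 1292 and 1318 CPM, against 2727 and 2565 CPM (-1.02 ± 0.07). Of the 6 tested genes 5 were lower and 1, Cx3cl1 at 0.38 ± 0.12, was higher in Y-marked cells, where 29.0% of all genes were called. Xist-marked KO LPS cells against all WT LPS cells gave 0 of the 6 called by edgeR after Benjamini-Hochberg adjustment. Against WT LPS, Klf2 was lower in Xist-marked KO LPS cells (-0.56 ± 0.08), although it was higher with all KO LPS cells. Klf2 had 1009 and 1086 CPM in Y-marked cells, against 305 and 309.9 CPM in Xist-marked cells (1.77 ± 0.08), and Jup had 135 and 130.2 CPM, against 32.5 and 26.6 CPM (2.15 ± 0.14).

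Lung capillaries hold a large, gas-exchanging cell type rich in Car4 and a smaller, general one rich in Gpihbp1, and the gated cells were split by markers of each. At least 2 UMIs over 6 Car4-type markers and under 2 over 4 Gpihbp1-type markers gave a Car4 subset of 249 cells, the reverse gave a Gpihbp1 subset of 647 cells, 996 cells held both and 220 held neither. Cells with both had the highest depth, with medians of 9143.5 to 13515 UMIs. Edn1 had 23.2 and 43.0 CPM in KO LPS, 115 and 173 CPM in WT LPS and no UMI in either vehicle library of the Car4 subset, against 438 and 505 CPM in KO LPS, 494.5 and 588 CPM in WT LPS and 192 and 190.1 CPM in KO and WT vehicle of the Gpihbp1 subset. Tek was likewise lower in the Car4 subset, at 7.74 and 32.2 CPM in KO LPS, 6.06 and 11.2 CPM in WT LPS and 40.2 and 48.7 CPM in KO and WT vehicle, against 111 and 96.5 CPM, 39.6 and 41.1 CPM, and 540.3 and 548 CPM in the Gpihbp1 subset. Both differences held in every library.

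Over the 6 libraries the Car4 minus Gpihbp1 difference on the log2(CPM + 10) scale was -3.36 for Edn1, -2.32 for Tek, -0.76 for Tjp1 and 0.32 for Esam, each of 1 sign in 6 of 6 libraries. The exact two-sided permutation test gave p = 0.03125 for each, the smallest that 6 pairs allow, and 0.0781 after Benjamini-Hochberg adjustment over the 10 members, so no member passed. Kdr leaned the other way, at 1.18 and higher in 5 of 6 libraries (exact permutation p = 0.0625), with 2024 and 1450.2 CPM in KO and WT vehicle of the Car4 subset, against 301 and 259 CPM in the Gpihbp1 subset. After LPS it stood at 193 and 301 CPM in KO LPS and 109 and 72.6 CPM in WT LPS of the Car4 subset, against 145 and 132.5 CPM in KO LPS and 49.4 and 73.0 CPM in WT LPS of the Gpihbp1 subset.

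The markers that cut the subsets fell with LPS themselves: the Car4-type markers summed to 713 to 817 plain CPM in LPS libraries against 1460 to 1541 in vehicle libraries. The Gpihbp1-type markers summed to 895 to 1271 against 2390 to 2425. The median depth of the Car4 subset was 3683 and 2779.5 UMIs in KO LPS and 5523 and 3349 in WT LPS, against 2981 in KO vehicle and 1118.5 in WT vehicle. LPS and vehicle cells thus entered a subset on different terms, and changes after LPS within a subset are read with that limit. For Cldn5 they had opposite signs. In the Car4 subset it had 1095 and 1955 CPM in KO LPS and 1859 and 1665 CPM in WT LPS, against 3044 CPM in KO vehicle and 2864 CPM in WT vehicle, a log2 change of -0.85 ± 0.28 (edgeR adjusted p = 0.0431). In the Gpihbp1 subset it had 1655 and 1601 CPM in KO LPS and 2660.2 and 2673 CPM in WT LPS, against 1391 CPM in KO vehicle and 1839 CPM in WT vehicle, a log2 change of 0.38 ± 0.10 (edgeR adjusted p = 0.0107). The difference between the changes was not tested, and the second sign rests on the scaling. On plain CPM Cldn5 in the Gpihbp1 subset had 1496 and 1421 in KO LPS and 2302 and 2282 in WT LPS, against 1729 in KO vehicle and 2174 in WT vehicle. In KO it was thus lower after LPS. In all, the edgeR fits called 7 of the 9 members tested in the Car4 subset, where Tek did not pass the filter on low counts, against 28.9% of genes, and 9 in the Gpihbp1 subset, against 37.4%. KO LPS against WT LPS called 6 members in the Gpihbp1 subset, against 2.88% of genes, namely Cldn5 (-0.71), Pecam1 (0.81), Esam (-0.60), Tek (1.37), Kdr (1.17) and Angpt2 (-1.88), and none in the Car4 subset, where 4 members had an unadjusted p under 0.05 and 0.0229% of genes were called. Epithelial RNA moved with the libraries of the Car4 subset: Sftpc, the surfactant protein C gene, had 29610 and 44.3 plain CPM in KO LPS and 31593 and 5823 in WT LPS, against 1224 in KO vehicle and 66.2 in WT vehicle. Without cells that pass another gate, where Sftpc was 0 to 93.4 plain CPM, Cldn5 in the Car4 subset stood at 1351 and 1858 plain CPM in KO LPS and 1897 and 1561 in WT LPS, against 3776 and 3379 in KO and WT vehicle.

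**Figure D4:**
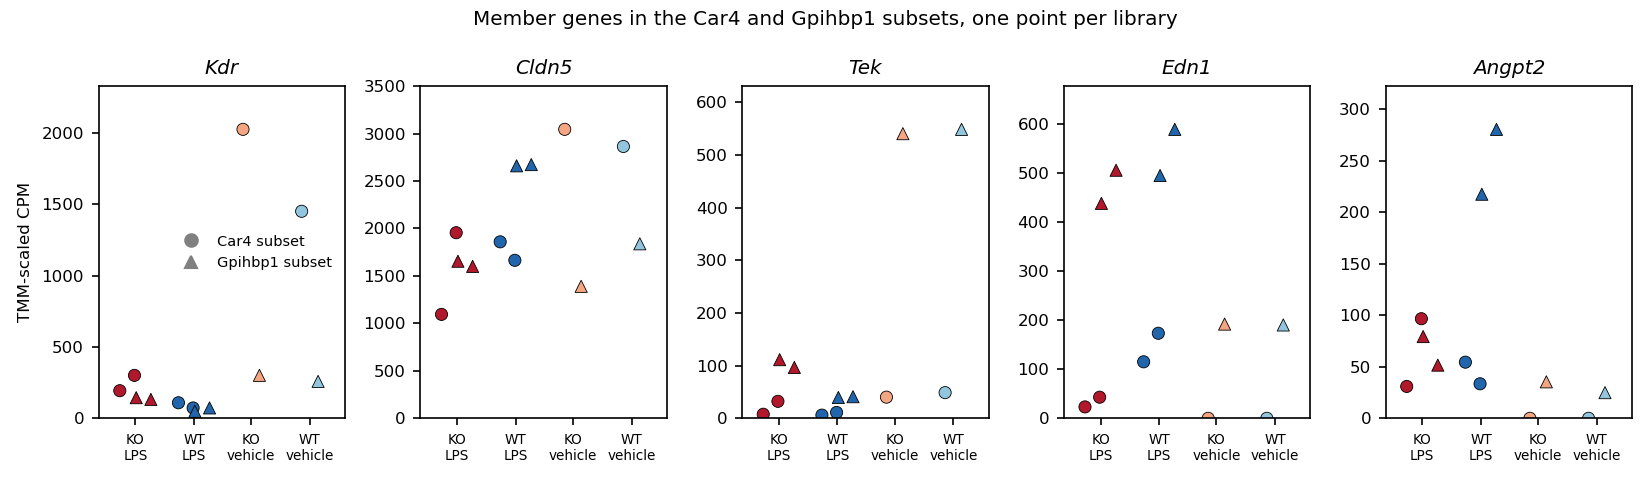
TMM-scaled CPM of members in the Car4 subset and in the Gpihbp1 subset of endothelial-gated cells (circles and triangles, a point per library, groups marked by colour). Edn1 and Tek lie lower in the Car4 subset in every library, and Cldn5 after LPS is below the vehicle library of the same genotype in the Car4 subset and, on this scale, above it in the Gpihbp1 subset.

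Outside the endothelium, 2 members were genes of leukocytes as well. Edn1 in myeloid cells was at or near 0 in vehicle libraries: classical monocytes had 169.5 and 191 CPM in KO LPS and 436 and 422 CPM in WT LPS, against 0.36 CPM in KO vehicle and 0 in WT vehicle. That was 21407 UMIs in the LPS libraries against 1 UMI in the vehicle libraries. Interstitial macrophages had 176 and 235 CPM in KO LPS and 290.5 and 241 CPM in WT LPS, against no UMI in vehicle, at least 383-fold higher on plain CPM with a floor of 3 counts over the vehicle libraries. Neutrophils had 83.1 and 86.9 CPM in KO LPS and 157 and 141 CPM in WT LPS, against 0.657 and 0 CPM in KO and WT vehicle. At baseline Edn1 was highest in endothelial cells among the 12 types tested, next to 40.4 CPM in KO vehicle and 5.999 CPM in WT vehicle stromal cells, and after LPS the WT monocytes reached its level, at 436 and 422 CPM against 358 and 401 CPM in WT LPS endothelial cells.

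KO LPS monocytes held less Edn1 than WT LPS monocytes, by a log2 difference of -1.26 ± 0.06 in classical monocytes (edgeR adjusted p = 6.56e-10), -0.79 ± 0.13 in nonclassical monocytes, -0.81 ± 0.07 in neutrophils and -1.22 ± 0.22 in dendritic cells, all called by edgeR. Of all genes 34.6% were called in classical and 8.98% in nonclassical monocytes, 28.3% in neutrophils and 6.37% in dendritic cells. At 1500 UMIs per cell Edn1 was seen in 14.5% and 17.0% of KO LPS and 34.4% and 34.4% of WT LPS classical monocytes, and in 1.13% and 1.07% of KO LPS and 2.71% and 2.01% of WT LPS T cells. Edn1 in T, B, NK and alveolar macrophage gates, at 11.2 to 100.1 CPM after LPS, was lower in KO LPS than in WT LPS by a log2 difference of -1.47 in T cells, -1.21 in NK cells and -1.07 in alveolar macrophages, all called by edgeR, and was not called in B cells (-0.14, edgeR adjusted p = 0.804). Of all genes 3.21% were called in T cells, 3.97% in NK cells and 34.5% in alveolar macrophages. How much of it is RNA from outside those cells was not tested. Leukocytes were not split by sex mark, although both KO LPS libraries mixed the marks in endothelial cells. What part the mark has in these Edn1 differences was not tested.

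Pecam1, a gene of most leukocytes, moved by cell type. Neutrophils had 28.6 and 27.2 CPM in KO LPS and 36.5 and 38.5 CPM in WT LPS, against 6.57 and 9.54 CPM in KO and WT vehicle (log2 change 2.03 ± 0.19, edgeR adjusted p = 1.55e-09), classical monocytes rose by 1.16 ± 0.17 and nonclassical monocytes by 1.26 ± 0.11. B cells fell, with 105 and 92.6 CPM in KO LPS and 56.4 and 53.0 CPM in WT LPS, against 124 and 149 CPM in KO and WT vehicle (-0.88 ± 0.09, edgeR adjusted p = 2.26e-07). As in endothelial cells, the B cell response differed between genotypes, by 1.12 ± 0.18 (edgeR adjusted p = 0.00159), and KO LPS was above WT LPS by 0.86 ± 0.12, where 9.6% and 24.7% of genes were called. B cells were not split by sex mark, so the part of the mark in this difference was not tested. Over the 11 other types tested, members were called 41 times for LPS against vehicle, and 25 times without the WT vehicle library. From 3 members (T cells) to 10 (neutrophils and stromal cells) were tested per type, and the 41 calls were about as frequent as calls over all genes. The share of all genes called was 66.9% in B cells, 61.3% in nonclassical and 59.9% in classical monocytes, 59.1% in alveolar and 58.4% in interstitial macrophages, 50.0% in dendritic cells, 49.9% in neutrophils, 48.6% in T cells, 45.4% in NK cells, 35.0% in stromal and 1.99% in epithelial cells. Cldn5 had 0 to 44.4 CPM in the tested leukocyte gates. It is a gate gene, and cells that passed the endothelial gate were taken out of the other gates first. Its low level there is thus partly set by the rule and is no independent check. Cldn5 reached 165 plain CPM in the untested plasmacytoid dendritic gate, where 91 of 93 LPS UMIs came from 1 WT LPS library. It had 108 to 467 CPM in the stromal gate, whose values are not read further.

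**Figure D5:**
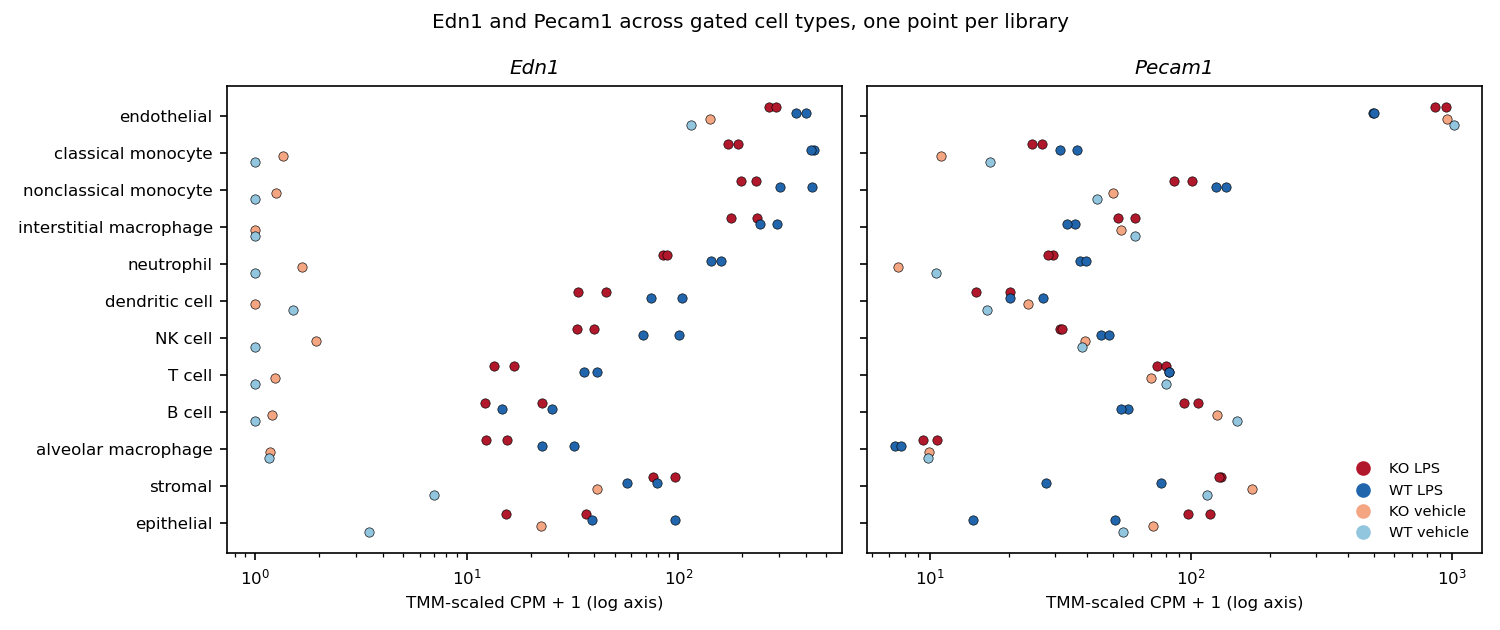
TMM-scaled CPM of Edn1 and of Pecam1 in each gated cell type (CPM + 1 on a log axis, a point per library, groups marked by colour). Edn1 in classical monocytes lies at 169.5 to 436 CPM after LPS and at or near 0 in vehicle libraries, whereas endothelial cells hold 114 to 401 CPM throughout.

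Across 78 sums of 14 cell types by library, the genes with the most similar profile to each member were read out by Pearson's r of log2(CPM + 1) over 9203 genes, as a description in which the sums share libraries and depth. Cldn5 was most like Adgrf5 (r = 0.97), Cdh5 like Cldn5 (0.96), Esam like Slco2a1 (0.96), Tjp1 like Fermt2 (0.97), Tek like Clec14a (0.96) and Ptprb (0.95), and Tie1 like Tmod2 (0.96). Kdr was most like Dll4 (0.86), Angpt2 like Enpp2 (0.89) and Edn1 like Lipg (0.92). Pecam1 was most like Prkce (0.87).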

How the data were processed

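The data were gene by cell matrices of 6 libraries, 2 each of KO LPS and WT LPS and 1 each of the vehicle groups. Their values are raw UMI counts as deposited by the authors. Cell Ranger 6.1.0, Seurat 4.1.0, R 4.1.3 and the mm10 build are named per the submitters' processing notes. Cells with at least 200 genes and at most 10% mitochondrial UMIs were kept. No doublet caller was run; the Ptprc limit, and an alternative without cells that pass another gate, stand in its place. Endothelial cells were gated by UMIs as given above, and other types by the summed level of their markers. UMIs were summed per library and type and tested with edgeR 4.0.16 (R 4.3.3; filterByExpr, TMM, quasi-likelihood, 1 coefficient per group, 2 residual degrees of freedom), with Benjamini-Hochberg adjustment over all genes and a threshold of 0.05. The fit with KO LPS cells split by sex mark held both parts of a library as separate sums with no library term. The degrees of freedom given here are not those of that fit. DESeq2 1.42.0 was an alternative. Standard errors are the absolute log2 change divided by the square root of F. Subsets were compared with exact permutation tests (scipy 1.17.1), and intervals cover counting error only, at 95%. Only the edgeR fit of LPS against vehicle in endothelial-gated cells was tried on simulated counts. Far fewer genes were changed there than were called in these data. The gates, the other contrasts and the subset tests were not simulated. Genes named outside the members are those with the smallest p in each pathway list (up to 4 for LPS, up to 2 for KO LPS against WT LPS) and the closest profiles. The members and lists were chosen with earlier results of these data known. Splits by sex mark, capillary subset and other gates were partly chosen after seeing the data.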

Additional observations from a re-analysis of the deposited data

Results flagged for a closer look

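The response to LPS differed between KO and WT endothelial cells for 7 members in the test of the difference itself, as KO minus WT on the log2 scale (edgeR with Benjamini-Hochberg adjustment). The receptor genes Tek (1.25) and Kdr (1.03) and the junction gene Pecam1 (0.94) were positive, so they fell less in KO. Angpt2 (-1.90), Edn1 (-0.76), Esam (-0.73) and Cdh5 (-0.51) were negative, so they rose less in KO. With Xist-marked KO LPS cells only, 1 of the 7 was called, and calls over all genes fell steeply as well, as the counts below show. The sex mark and the group cannot be told apart in WT. Pecam1 also differed in B cells, by 1.12, where 9.6% of genes were called. B cells were not split by sex mark.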

How the results depend on the processing

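Scaling without TMM reversed Cldn5 for LPS (-0.19), in WT (-0.044) and in KO (-0.33). The Car4 subset reversed Cldn5 (-0.85, in WT -0.70, in KO -1.01), Esam in KO (-0.036), Tie1 and Angpt2 between KO LPS and WT LPS (-0.78 and 0.36), and both in the response difference (-1.13 and 0.36). With Y-marked KO LPS cells, Pecam1 (0.27) and Tjp1 (0.042) in KO and Tie1 in the response difference (-0.056) reversed; leaving out 1 library gave -0.020 to 0.25 for the last. The Car4 minus Gpihbp1 difference reversed without mixed cells for Cldn5 (0.12) and Pecam1 (0.16), and on leaving out 1 LPS library for Cldn5 (range -0.27 to 0.083) and Pecam1 (range -0.12 to 0.071). The causes were not tested. Genes called for LPS were 7277, with 3887 by DESeq2, 1261 in the Car4 and 2888 in the Gpihbp1 subset, which hold fewer cells. For WT the counts were 6143, 2919, 701 (4 members) and 2120, and for KO 5173, 2144, 661 (2 members), 1571 (5 members), and 2900 with Y-marked cells. KO LPS against WT LPS called 2218 genes, and 748 by DESeq2, 1 in the Car4 subset (0 members, 4 at an unadjusted p under 0.05), 222 in the Gpihbp1 subset, 1152 with Xist-marked KO LPS cells, 1061 with Xist-marked cells of all groups and 3551 with Y-marked cells. Both Xist-marked fits named here called 7 members. The response difference called 334 genes, and 718 with no low-count filter, 120 by DESeq2, 524 with a gate per 10000 UMIs, 2 in the Car4 subset (0 members by edgeR, 0 at an unadjusted p under 0.05), 19 in the Gpihbp1 subset (0 members, 4 at an unadjusted p under 0.05), 25 with Xist-marked cells (1 member) and 1236 with Y-marked cells. DESeq2 called 6 members there. Leaving out 1 library gave 5092 to 7298 genes and 8 to 10 members for LPS, 5842 to 6375 and 10 for WT, 4395 to 5659 and 7 to 8 for KO, 1478 to 2065 and 9 to 10 for KO LPS against WT LPS (1478 without KO LPS replicate 1), and 297 to 585 and 6 to 7 for the response difference. Member calls over the other types ran from 25 (without WT vehicle) to 49, and 0 members passed the subset test. The log2 difference in the share of endothelial cells was 0.29 for LPS (0.23 to 0.35; called at 0.35 without WT LPS replicate 1) and 0.47 for KO LPS against WT LPS (0.35 to 0.60; lost without KO LPS replicate 1 at 0.36 and without replicate 2 at 0.55). With a replicate block, 2439 genes and 9 members were called for KO LPS against WT LPS; same-numbered libraries deviated together with r = 0.0368 across genes, so they share only a number. Single vehicle libraries and 249 to 520 endothelial cells per library limit all values.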

Other observations

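Kdr RNA was also seen in dendritic cells, with 9.21 and 15.4 CPM in KO LPS and 17.5 and 18.2 CPM in WT LPS, against 1.57 CPM in KO vehicle and 0 in WT vehicle. That was 127 UMIs in LPS against 6 in vehicle libraries, a ratio of 9.69 (4.33 to 26.9, counting error only). Cdh5, a gene of endothelium, moved alike there, with 86 UMIs against 4 and a ratio of 9.84 (3.71 to 36.9), though 73 of the 86 came from 1 WT LPS library. In the plasmacytoid dendritic gate, which was not tested, Kdr had 191 UMIs against 4, a ratio of 9.38 (3.603 to 34.8), and Cdh5 had 264 against 6, a ratio of 8.64 (3.92 to 23.8). How much of this is RNA from endothelial cells was not tested.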
